A study of Homo sapiens and Mus musculus with 21 samples.

Results

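The sites described here are mapped m6A positions whose 5-letter sequence begins with 2 G, that is GGAC followed by A, C or T. N6-methyladenosine (m6A) is written inside mRNA by a nuclear complex built around METTL3 and METTL14, which prefers adenosines in a DRACH setting (D is A, G or T, R is A or G, and H is A, C or T). GGAC is the form of that setting most often named as canonical, and YTH domain proteins are the best known readers of the mark. Members were taken from the motif that each deposited list writes for a site: all sites with G at motif positions 1 and 2. They make up 72122 of the 207671 listings in 5 lists. Listings in several libraries collapse to 29137 of 90876 distinct positions in human cells and 20200 of 59636 in mouse cells.

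The study knocked out PCIF1, the methyltransferase that places m6Am next to the mRNA cap, and asked among other things what its loss does to internal m6A. The 5 libraries used here are miCLIP, in which an antibody against m6A is joined to RNA by ultraviolet light and the cDNA then carries base changes beside the methylated adenosine. HEK293T, a transformed human embryonic kidney line, gave 1 wild-type (WT) library and 2 PCIF1 knockout (KO) libraries, and WT mouse embryonic fibroblasts (MEF) gave 2. All 5 used polyadenylated RNA and the same anti-m6A antibody. The labels do not say whether KO replicates are separate clones or cultures, or whether MEF replicates came from separate embryos, so the tests below rest on the spread from library to library, part or all of which may be technical.

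For each site the lists give k, the number of reads at the position, and m, the number of those that carry the substitution. The lists were made per library, and every listed site has an m of at least 2 and a k of at least 4, so a position absent from a list may still be methylated. GGAC sites carried 73599 substituted reads in WT and 72094 and 92984 in the first and the second KO library. The MEF libraries held 69464 and 71358. Intervals given below are exact 95% binomial intervals that cover counting error only, since the lists do not say whether reads of 1 molecule were collapsed. As a check of the cell label, 3 of 6 HEK293T markers (LIN28B, NEFM and IRS4) had a site in WT, against 0 of 5 blood and endothelial, 0 of 4 epithelial and 3 of 10 fibroblast markers (FN1, VIM and COL1A1). Sites need transcripts that are both expressed and methylated, so this checks the label only in part, and mouse genes were not named here.

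The members can be read in full where a site lies in the first bases of a gene, since those are the reference sequences used here. Of 21 WT sites of this kind that were considered, the 3 with most substituted reads for each of the 3 bases that can follow are shown as RNA-strand sequence in DNA letters (RefSeq, GRCh38.p14), with the 5-letter motif in capitals and the methylated A at motif position 3. How alike the flanks of the motif are was not measured. Sites this close to a start are a small and untypical part of the members, and 7 of the 9 were listed in WT alone.
TOP2B, chr3:25664874-25664898, minus strand: gtgttatgccGGACAagagggaggt
IRF2BP2, chr1:234609484-234609508, minus strand: cgggctcctcGGACAtggccgcggc
COX4I1, chr16:85799699-85799723, plus strand: tccggtcgcgGGACAccgggtgtag
MYBL2, chr20:43667133-43667157, plus strand: gaggagcgcgGGACCtgctgacacg
PHPT1, chr9:136849432-136849456, plus strand: tggcggtggcGGACCtcgctctcat
TASOR, chr3:56683191-56683215, minus strand: gcggctccgaGGACCgggcagcgca
CFAP298-TCP10L, chr21:32612350-32612374, minus strand: gtgggattccGGACTgtgagcggct
SLC39A7, chr6:33200881-33200905, plus strand: tctaaaggcgGGACTgccacgtcca
KIAA1656, chr22:30377882-30377906, minus strand: cacagaacctGGACTtctgactgcc

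Of these 9, the site of IRF2BP2, a transcriptional corepressor, was the only one in all 3 human lists. It had 5 of 42 reads substituted in WT (11.9%), 7 of 48 in KO replicate 1 (14.6%) and 3 of 19 in KO replicate 2 (15.8%). TOP2B, a DNA topoisomerase, had 6 of 67 reads (8.96%) and MYBL2, a cell cycle transcription factor, 4 of 55 (7.27%), both in WT alone. SLC39A7, a zinc transporter, had 3 of 31 reads in WT (9.68%) and 2 of 11 in KO replicate 1 (18.2%). Counts of this size do not separate the libraries.

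GGAC was the most frequent of the 6 possible starts of the motif in every library. It made up 34.0% of sites in WT (14864 of 43663), 34.4% in KO replicate 1 (14030 of 40768), 34.4% in KO replicate 2 (16393 of 47644), 35.8% in MEF replicate 1 (13311 of 37141) and 35.2% in MEF replicate 2 (13524 of 38455). The mean was 34.8% ± 0.72 (SD, n = 5). Human libraries averaged 34.3% ± 0.21 (SD, n = 3) and mouse libraries 35.5% ± 0.47 (SD, n = 2), and the values do not overlap. The exact permutation test of this difference of -1.22 percentage points gave p = 0.2, the smallest that 3 against 2 libraries allow, and 0.222 after Benjamini-Hochberg adjustment over 10 comparisons. Among sites with G before the methylated A alone, GGAC made up 52.5% (52.2 to 52.9% over the libraries).

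**Figure D1:**
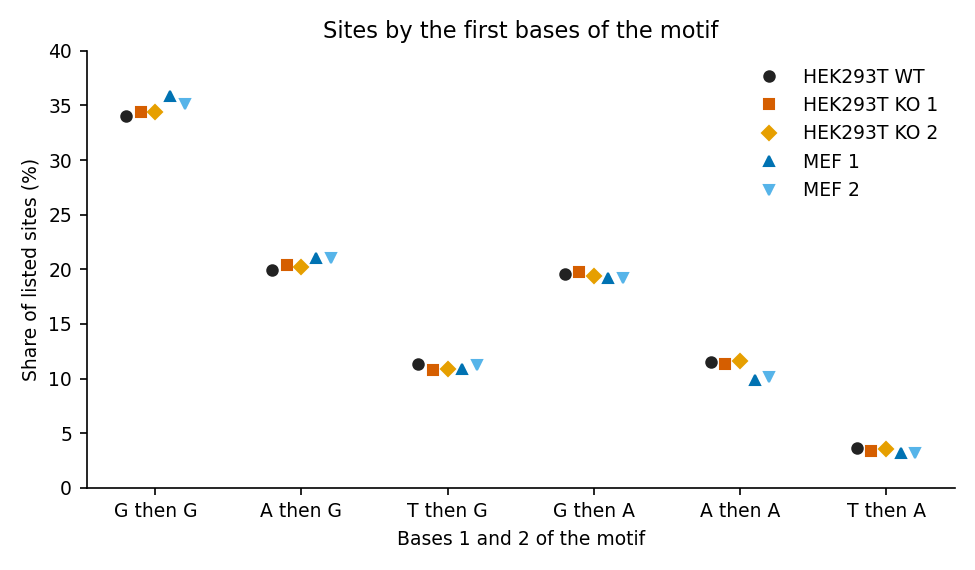
Share of listed sites in percent (vertical axis) by the first bases of the motif (horizontal axis), with 1 point per miCLIP library. The leftmost group, with G at both positions, lies between 34.0 and 35.8% in all 5 libraries, and the MEF points lie above the HEK293T points.

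The fifth base split the GGAC sites in a way not seen after other starts. A followed in 45.2% ± 0.26 of GGAC sites, T in 39.8% ± 0.88 and C in 15.01% ± 0.79 (SD, n = 5). In WT this was 6670 sites with A, 5863 with T and 2331 with C. Sites ending in A outnumbered those ending in T by 1.09 to 1.16 times in the 5 libraries after GGAC. After all other starts together that ratio was 0.605 to 0.646, and the highest value for any single other start was 0.770 (TAAC in MEF replicate 2). C was also more frequent after GGAC, at 0.343 to 0.404 sites per site ending in T, against 0.135 to 0.153 after the other starts. The excess of A over T within GGAC averaged 5.33 percentage points (3.84 to 6.42, 5 of 5 libraries). The exact sign-flip permutation test gave p = 0.0625, the smallest that 5 libraries allow, and 0.104 adjusted over the 10 comparisons.

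That order turned with the number of reads. Among GGAC sites with 4 to 9 reads, A followed in 48.8% on average (48.4 to 49.5%) and T in 34.4% (33.3 to 35.1%). At 200 reads and over, T followed in 50.8% (49.0 to 53.4%) and A in 36.2% (33.9 to 37.6%), and the ranges of the libraries did not overlap in either class. Over all GGAC sites with a k of at least 50, the difference of A minus T was -3.73 percentage points. Sites with other starts moved in the same direction, T rising from 46.3% to 65.3% between the same classes. Whether A or T is the more frequent base after GGAC therefore depended on depth, while in both classes T was less frequent after GGAC than after the other starts.

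**Figure D2:**
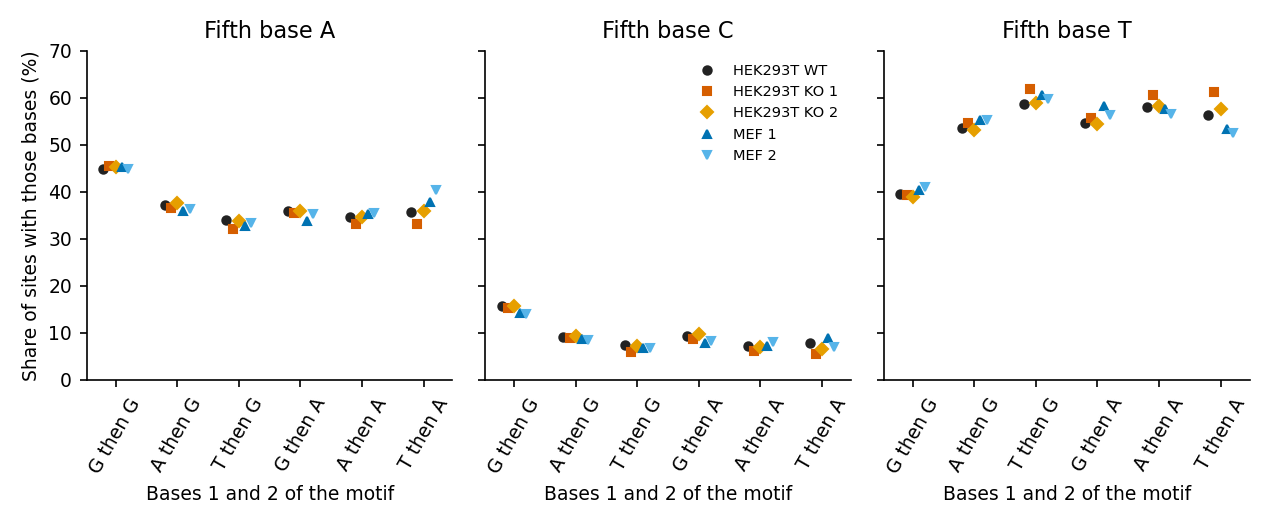
Share of sites by the fifth base (A, C and T, from left to right) in percent, by the first bases of the motif, with 1 point per library. Sites with G at both positions stand apart from the other 5 groups in each panel, with 45.2% A, 15.01% C and 39.8% T on average.

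The mouse lists held fewer C-ending members than the human ones. C followed GGAC in 14.2% ± 0.14 of MEF sites (SD, n = 2) and 15.6% ± 0.24 of HEK293T sites (SD, n = 3), and T in 40.7% ± 0.42 and 39.2% ± 0.27. Neither pair of groups overlapped, and in both cases the exact permutation test gave the smallest possible p = 0.2 (adjusted p = 0.222). Species, cell type and library set cannot be told apart in this comparison.

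GGAC sites were read somewhat more often than all other sites together. Their median k was 34 in WT, 39 and 44 in the KO libraries and 42 and 41 in the MEF libraries. Other sites had medians of 28 to 41. Among these, AGAC and TGAC sites came near GGAC, with 31, 38, 44, 39 and 38 in the same order of libraries. Sites with A before the methylated A had 27, 33, 38, 32 and 30. Within GGAC, T-ending sites had the most reads (median k of 40 to 53), and A-ending (31 to 40) and C-ending sites (28 to 40) fewer. The mean number of substituted reads was 5.25 ± 0.27 per GGAC site and 4.48 ± 0.21 per other site (SD, n = 5). At least 10 substituted reads were found at 10.6% ± 1.26 of GGAC sites and 7.38% ± 0.99 of other sites (SD, n = 5).

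The more substituted reads a site had, the more often it was a GGAC site. The share rose from 29.9% at an m of 2 (28.9 to 30.4% over the 5 libraries) through 33.5% at 3, 36.3% at 4 to 5, 39.5% at 6 to 9 and 41.9% at 10 to 19 to 50.1% at 20 and over (47.7 to 52.7%). The lowest and highest classes did not overlap in any pair of libraries. Within GGAC, the C-ending share fell along the same classes from 17.7% to 8.32%, while T rose from 36.4% to 42.3% and A from 45.9% to 49.4%. A list cut at an m of 10 would thus contain 43.5% GGAC sites in place of 34.8%.

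**Figure D3:**
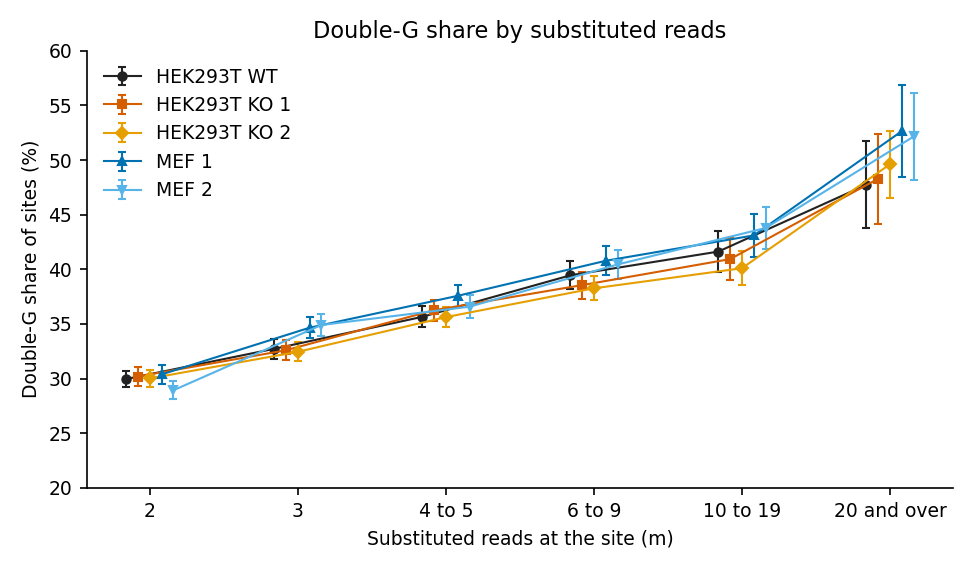
GGAC share of sites in percent (vertical axis, starting at 20%) by the number of substituted reads m at the site, for each library, with exact 95% binomial intervals. All 5 libraries rise from about 29.9% at 2 substituted reads to between 47.7 and 52.7% at 20 and over.

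The substituted share of reads, summed m over summed k, was higher at GGAC sites than at other sites in all 5 libraries. It was 7.73% in WT (interval 7.68 to 7.79%), and over the libraries it averaged 7.58% ± 0.19 at GGAC sites and 6.83% ± 0.25 at other sites (SD, n = 5). The difference averaged 0.753 percentage points (0.688 to 0.866), or 1.11-fold, with an exact sign-flip permutation p = 0.0625, the smallest possible (adjusted p = 0.104). The other starts were not alike, and some lay close to GGAC. GGAC had 7.73, 7.69, 7.26, 7.68 and 7.54% (WT, KO replicates 1 and 2, then MEF replicates 1 and 2). In the same order AGAC had 7.50, 7.26, 6.90, 7.35 and 7.24%, and GAAC 7.34, 7.26, 6.74, 7.30 and 7.24%. TAAC was lowest in every library, at 5.67, 5.58, 4.96, 5.96 and 5.86%. The median of m over k per site hardly separated GGAC from all other sites, at 10.4% and 10.2%. The mean difference was 0.159 points and was 0 in WT and both MEF libraries. Because a site must reach an m of 2 to be listed, its m over k has a floor that is high where reads are few. Values of m over k are therefore not fractions of methylated molecules.

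Among the members the substituted share differed by the fifth base. GGACA sites had 8.66% ± 0.20 of their reads substituted, GGACC sites 7.06% ± 0.29 and GGACT sites 6.78% ± 0.17 (SD, n = 5). GGACA exceeded GGACT by 1.89 percentage points (1.82 to 1.96, 5 of 5 libraries), or 1.28-fold. It exceeded GGACC by 1.61 points (1.36 to 1.81, 5 of 5). GGACC exceeded GGACT by 0.279 points (0.113 to 0.539, 5 of 5), a difference smaller than the SD of GGACC over the libraries. Each of these 3 comparisons reached the smallest exact sign-flip permutation p = 0.0625 (adjusted p = 0.104).

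GGACT sites did not stand above other motifs when all listed sites were summed. They were at 6.78% against 6.83%, a difference of -0.049 points that was positive in 1 of 5 libraries (exact sign-flip permutation p = 0.312). Since T-ending sites had more reads than the rest, the comparison was repeated with sites of many reads alone, and its sign turned: GGACT was higher by 0.246 points at a k of at least 20 and by 0.391 points at a k of at least 50, in 5 of 5 libraries each.

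Within classes of similar k the GGAC members separated from the rest step by step. With 4 to 9 reads the ratio of the GGAC to the other substituted share was 1.01 (1.003 to 1.02), where the floor set by m leaves little room for a difference. It was 1.06 at 10 to 19 reads, 1.09 at 20 to 49, 1.13 at 50 to 99, 1.16 at 100 to 199 and 1.22 (1.16 to 1.27) at 200 and over. The ratio of GGACA to GGACT went from 1.01 (0.987 to 1.03) to 1.24 (1.18 to 1.28) over the same classes. At 200 reads and over, GGACA sites had 5.68% of their reads substituted (5.56 to 5.95%), GGACT sites 4.58% (4.37 to 4.77%), other sites 3.97% (3.81 to 4.18%) and GGACC sites 3.57% (3.20 to 3.83%). The GGACC share was 1.04 to 1.07 times that of other sites on average in the classes from 10 to 99 reads, and 0.903 times (0.766 to 1.004) in the deepest class.

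An A at the fifth position did not go with a higher substituted share after every start. GGACA exceeded GGACT by 1.27 to 1.29 times in the 5 libraries. The corresponding ratio was 1.08 to 1.16 for AGAC, 1.11 to 1.14 for GAAC and 1.05 to 1.15 for TGAC, each above 1 in 5 of 5 libraries. For AAAC it was 0.893 to 0.978, below 1 in all 5, and TAAC was above 1 in 1 of 5. At 200 reads and over, A-ending sites of all other starts together had 0.868 times the share of T-ending ones (0.848 to 0.896), against 1.24 within GGAC.

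**Figure D4:**
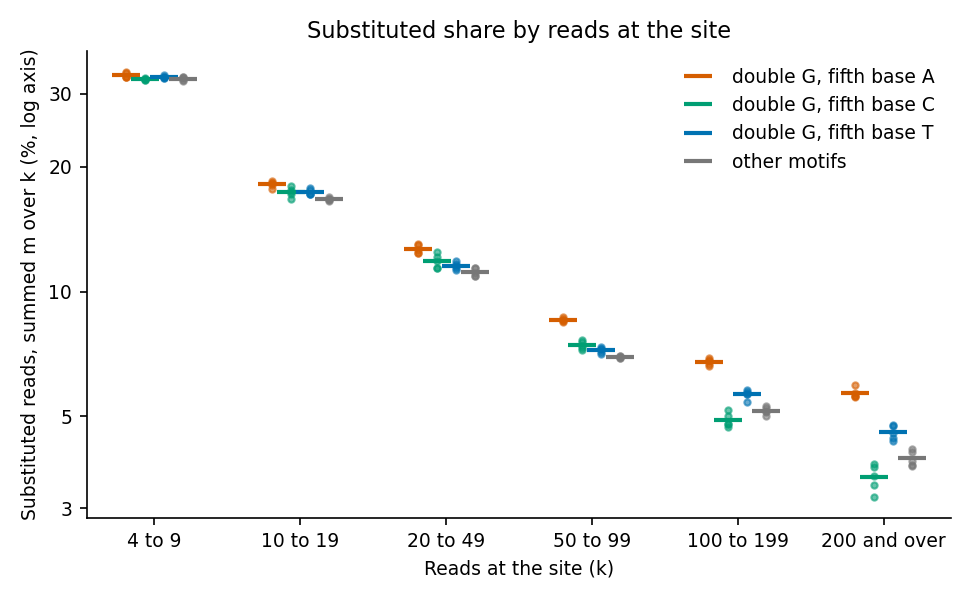
Substituted share of reads in percent (vertical axis, logarithmic) by the number of reads k at the site, for GGAC sites by the fifth base and for all other motifs. Each point is 1 library and each dash the mean of the 5 libraries; the groups coincide near 33% at 4 to 9 reads and lie at 5.68% (A), 4.58% (T), 3.97% (other) and 3.57% (C) at 200 and over.

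GGAC sites were found again in a second list of the same cells more often than other sites. Over the 8 ordered pairs of lists (6 among the 3 human lists and 2 among the mouse lists), 43.3 to 50.6% of GGAC sites were also in the second list, against 34.4 to 40.4% of other sites. The difference averaged 9.86 percentage points and was positive in all 8, but the pairs share libraries and were not tested. A-ending members (45.6 to 53.3%) were above T-ending members (43.6 to 51.5%) in all 8 pairs, though the ranges overlap, and the range of C-ending members (33.5 to 41.0%) was close to that of other motifs. Of the 29137 human GGAC positions, 60.9% were in 1 list, 22.9% in 2 and 16.3% in all 3, while of the 61739 other positions 70.5%, 18.4% and 11.1% were.

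Seen from the other side, the GGAC share rose with the number of lists a position was in. It was 28.9% of the 61253 human positions in 1 list, 36.9% of the 18047 in 2 and 41.0% of the 11576 in all 3. In MEF it was 31.1% of positions in 1 list and 41.6% of those in both. Positions listed in a single human library held similar shares, with overlapping intervals. Those in WT alone held 28.5% GGAC sites (interval 27.9 to 29.2%), those in KO replicate 1 alone 28.9% (28.3 to 29.6%) and those in KO replicate 2 alone 29.3% (28.7 to 29.9%). Within GGAC, C-ending sites made up 19.6% of members in 1 human list and 11.1% of those in all 3.

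Much of the agreement between lists went with m. At an m of 2 in the first list, 13.4 to 19.5% of GGAC sites and 8.86 to 12.3% of other sites were in the second. At an m of 3 the shares were 31.2 to 42.6% and 24.9 to 32.7%. GGAC was ahead in all 8 pairs in each class up to 6 to 9 substituted reads, where the difference was 2.42 to 3.89 points. At 10 to 19 it was ahead in 6 of 8 and at 20 and over in 5 of 8, with nearly all sites of either kind found again (97.5 to 100% and 97.4 to 100%).

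**Figure D5:**
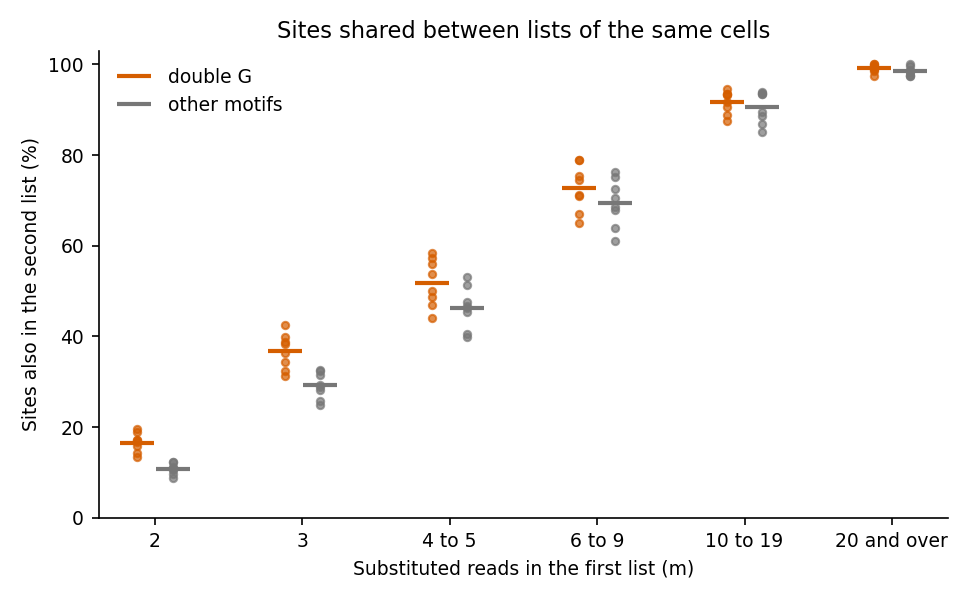
Share of sites in percent that are also in a second list of the same cells, by the number of substituted reads m in the first list, for GGAC and other sites. Each point is 1 of 8 ordered pairs of lists and each dash their mean; the GGAC points run from 13.4 to 19.5% at 2 substituted reads to 97.5 to 100% at 20 and over.

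At the 4743 GGAC positions in all 3 human lists, the substituted share was close to equal in WT and PCIF1 KO cells. It was 7.05% in WT (interval 6.98 to 7.11%), 7.12% in KO replicate 1 (7.06 to 7.19%) and 6.95% in KO replicate 2 (6.89 to 7.01%), so that WT lay between the KO libraries. The A-ending members were at 8.03, 8.13 and 7.91%, the C-ending at 6.74, 7.06 and 6.89% and the T-ending at 6.19, 6.18 and 6.06% in the same order. The log2 odds of substitution, log2((m + 0.5)/(k - m + 0.5)), had a median KO minus WT difference of -0.01 over the GGAC positions, with 49.1% of them higher in KO. Against WT alone the medians were 0.02 for KO replicate 1 and -0.06 for KO replicate 2. In other motifs the same fit gave a median of -0.06.

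Of these GGAC positions limma called 0 at an adjusted p under 0.05 in a fit over all 11576 shared positions, where it also called 0 (0%). At an unadjusted p under 0.05 limma had 248 of 4743 GGAC positions (5.23%), 109 higher and 139 lower in KO, against 4.66% of all shared positions (1.74% higher and 2.92% lower). Fisher's exact test per site, which compares these libraries and not the genotypes, called 1 of 11576 positions (0.00864%) and 0 of the GGAC positions, 233 of which had an unadjusted p under 0.05. The lone WT library is assumed to vary like the KO libraries, and the median standard error of a site's log2 difference was 0.61. With a single WT library and errors of this size, the lack of calls cannot show that sites were unchanged. Positions that left a list in KO are not among the shared ones, so this comparison cannot show a loss at such positions. Across GGAC positions the log2 odds of pairs of human libraries correlated with Pearson's r of 0.71 to 0.74 and those of the MEF libraries with 0.75. These are descriptions across sites that share transcripts and depth.

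The GGAC sites with most substituted reads in WT were spread over transcripts of different kinds. IRS4, an insulin receptor substrate, had the first, a GGACA on chromosome X at 108733372 (GRCh38, as are all human coordinates here; the lists give the C that follows the methylated A). It had 198 of 1463 reads in WT, 122 of 949 in KO replicate 1 and 211 of 1456 in KO replicate 2. ACTG1, cytoplasmic gamma actin, had a GGACT at chromosome 17, 81510684, with 11.7, 10.7 and 10.9%. ACTB, beta actin, had one at chromosome 7, 5527742, with 7.28, 5.68 and 6.55%. The KO values lie on both sides of WT at IRS4 and below it at both actins. These and the leading human sites named below were picked from the WT list, and such a choice favours high WT values.

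Some of the other leading members had higher substituted shares than these. SCAMP4, a secretory carrier membrane protein, had a GGACA at chromosome 19, 1925608, with 41.3% of 315 reads in WT, 34.6% of 162 in KO replicate 1 and 41.1% of 316 in KO replicate 2. DEAF1, a transcription factor, had a GGACT at chromosome 11, 644471, with 35.6, 32.0 and 32.2%. EIF4EBP1, which binds and inhibits the cap-binding factor eIF4E, had a GGACA with 35.4, 23.6 and 35.6%. CENPB, which binds centromeric repeats, had a GGACA at chromosome 20, 3785638, with 15.5, 11.4 and 9.80%. DCTPP1, a nucleotide pyrophosphatase, had a GGACT at chromosome 16, 30424216, with 16.3, 14.5 and 21.0%. None of these sites was called, and at DCTPP1 the KO libraries lie on both sides of WT.

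C-ending sites, the least frequent members, also included strongly substituted ones. RBM15B, an RNA-binding subunit of the m6A writer complex, carried the GGACC site with most substituted reads at chromosome 3, 51393051, with 61 of 227 reads in WT (26.9%), 37 of 202 in KO replicate 1 (18.3%) and 63 of 278 in KO replicate 2 (22.7%). TSHZ1, a zinc finger homeobox factor, had 41 of 82 reads in WT (50%) and 44 of 99 in KO replicate 2 (44.4%) at chromosome 18, 75286481, and was not listed in KO replicate 1. CHAF1A, a histone chaperone subunit, had 14.7, 14.1 and 14.4% at chromosome 19, 4409195. ARF6, a small GTPase of membrane traffic, had 13.8, 18.8 and 14.5% at chromosome 14, 49894111, and NGRN, a mitochondrial protein, 14.5, 15.1 and 8.41% at chromosome 15, 90271560. The list of KO replicate 1 gives no reads for the TSHZ1 site, and why it is absent there was not tested.

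In MEF the member with most substituted reads was a GGACT on chromosome 10 at 81182261 (mm10), with 205 of 2259 reads in replicate 1 and 220 of 2435 in replicate 2, or 9.07 and 9.03%. A GGACA at chromosome 10, 117690317, had 13.8 and 17.4%, one at chromosome 9, 58312482, 15.7 and 18.9%, and one at chromosome 11, 120560394, 16.1 and 19.5%. A pair of GGACT sites on chromosome 19 lay close together, at 5801466 (8.16 and 10.4%) and 5801560 (7.62 and 8.05%). A GGACA at chromosome 9, 75218170, had 91 of 208 reads (43.8%) in replicate 1 and was not listed in replicate 2.

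In WT, 13651 GGAC sites (91.8%) lay in the span of 1 gene on the matching strand, and they named 6185 genes, 5958 coding for protein and 227 for long noncoding RNA. KO replicates 1 and 2 named 6009 and 6379 genes. Of genes with any site, 67.6, 67.8 and 69.01% had at least 1 GGAC site (WT, then KO replicates 1 and 2). Most genes had few: in WT 2930 (47.4%) had 1, 2700 had 2 to 4, 502 had 5 to 9 and 53 had 10 or more. By gene, 74.2 to 78.7% of the genes of a list were found in another, more than by position. A gene is found again if any GGAC site of it is in the other list, so a higher share follows from the counting. The same share for other motifs is not given here. Within coding genes 34.1, 34.5 and 34.5% of sites were GGAC sites, and within long noncoding RNA genes 31.7, 31.3 and 32.0%, with intervals that touch or overlap (29.1 to 34.5% and 33.6 to 34.6% in WT).

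The 10 genes with the most GGAC sites in WT had 14 to 30 each. SPEN, a transcriptional repressor, had 30 in WT and 22 and 25 in KO replicates 1 and 2. XIST, the long noncoding RNA of X inactivation, had 28, 22 and 25. KMT2D, a histone methyltransferase, had 18, 15 and 19, DIDO1 had 17, 15 and 13, and SON, a protein of nuclear speckles, 16, 16 and 17. ANKRD11, a chromatin regulator, had 16, 20 and 19, MKI67, the proliferation marker Ki-67, 15, 14 and 17, ZNF503 14, 14 and 15, and SRRM2, a speckle scaffold, 14 in each. C15orf39 and CCDC57 also had 14 in WT and came after these by the rule for ties. FAT1, a protocadherin, differed most, with 15 in WT and 6 and 10 in KO. The genes were picked by their WT counts, which favours WT when KO is set beside it. Counts were not scaled to transcript length or level.

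The density of the motif among a gene's sites varied widely in these genes. GGAC made up 56, 53.8 and 55.6% of the sites of ZNF503 and 53.3, 51.3 and 55.9% of those of ANKRD11. In MKI67 it was 18.8, 25.9 and 20.5%, and in XIST 28.3, 21.8 and 26.0%. ZNF503 and ANKRD11, like KMT2D and DIDO1, lay above the 34% of all coding sites in all 3 libraries. MKI67, SON and SRRM2 lay below it in all 3, and SPEN and FAT1 on both sides. XIST lay below the 31.7, 31.3 and 32.0% of sites in long noncoding RNA genes. Picking genes by their number of GGAC sites favours high shares.

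The genes of the m6A machinery themselves carried GGAC sites. All 8 genes of the writer complex had one in WT and 7 of 8 in each KO library, with 28 of 96 sites in WT (29.2%), 24 of 83 in KO replicate 1 (28.9%) and 32 of 107 in KO replicate 2 (29.9%). Of genes with 5 or more sites of any motif, 92.5, 92.1 and 92.5% had a GGAC site. Most writer genes had 5 or more, so their count is near that background, though CBLL1 had 3 and METTL3 4 sites in WT. In all protein-coding genes 34.1% of WT sites were GGAC. RBM15B led with 11, 8 and 9. METTL3, the catalytic subunit, had 2 in each library, the stronger with 10 of 96, 3 of 80 and 14 of 137 reads. ZC3H13, a scaffold of the complex, had 5 in WT, 0 in KO replicate 1 and 5 in KO replicate 2, so that the KO libraries differed from each other.

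Reader and eraser genes carried GGAC sites as well. All 5 YTH readers had a GGAC site in WT and 4 of 5 in each KO library, with 22, 21 and 27 sites. Each of them had 5 or more sites of any motif in WT, and 92.5% of all such genes had a GGAC site. Of genes with any site, 67.6, 67.8 and 69.01% had one, the background for the smaller groups below. YTHDF2, which recruits decay factors, had 6, 5 and 9, and YTHDC1, the nuclear reader, 6, 4 and 5. At its leading WT site YTHDF1 had 16 of 84 reads in WT (19.0%), 7 of 71 in KO replicate 1 (9.86%) and 5 of 79 in KO replicate 2 (6.33%). This site was not called, and it was picked from the WT list, which favours WT. ALKBH5, an m6A demethylase, had 5, 1 and 6, and FTO, which acts on m6A and m6Am, 1, 1 and 0. Of the other binding proteins (HNRNPA2B1, HNRNPC, FMR1 and PRRC2A), 2 of 4 had one, with 6, 4 and 8 sites, 5, 3 and 7 of them in PRRC2A. IGF2BP readers had 7, 9 and 8, of which IGF2BP1 had 6, 5 and 6.

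The transcript of PCIF1, the enzyme removed in KO, had 2 GGAC sites in WT and 1 in either KO list. The stronger WT site, a GGACT, had 10 of 85 reads and was in neither KO list. The other methyltransferases were METTL16 with 3, 2 and 4, and METTL5 and ZCCHC4 with 0 in each. Of 13 transcripts long studied for m6A, 9, 11 and 10 had a GGAC site, with 43, 55 and 48 in all. Those with a site of any motif numbered 12, 12 and 10, and of all genes with any site 67.6, 67.8 and 69.01% had a GGAC site. EEF2, the translation elongation factor, had 10, 16 and 13, and JUN, a transcription factor, 5, 7 and 6 of 31, 38 and 36 sites. MALAT1, a nuclear long noncoding RNA, had 3, 7 and 4.

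For larger gene families the values were set beside those of all protein-coding genes, with no test of a difference. Of these genes, counted whether or not they had any site, 29.7, 29.0 and 30.8% had a GGAC site. Of 86 cytosolic ribosomal protein genes, 24 had a GGAC site in WT (27.9%) and 32 and 35 in KO (37.2 and 40.7%), and GGAC made up 21.3% of their sites in WT (interval 15.2 to 28.4%), 28.1% in KO replicate 1 (21.5 to 35.4%) and 30.1% in KO replicate 2 (23.6 to 37.2%). Of 75 oxidative phosphorylation genes, 21, 18 and 19 had one (28, 24 and 25.3%), with 39.0, 36.6 and 33.0% of their sites. Of 509 ZNF genes, 188, 197 and 198 had one, with 29.2% (27.0 to 31.5%), 29.8% (27.5 to 32.1%) and 29.0% (26.9 to 31.2%), below the 34.1 to 34.5% of all coding genes in each library. HOX genes had 18, 20 and 22 of 39, with 34.4, 34.6 and 35.3%. Of 69 replication-dependent histone genes, whose mRNA lacks a poly(A) tail, 3, 4 and 4 had one. Counting only genes with a site of any motif, 68.5, 68.9 and 69.9% of coding genes had a GGAC site. On that measure ribosomal protein genes were lower (42.9, 53.3 and 60.3%), as were oxidative phosphorylation genes (52.5, 54.5 and 46.3%). ZNF (61.2, 61.2 and 62.1%) and histone genes (33.3, 57.1 and 40%) were also lower, and HOX genes higher (75, 80 and 84.6%).

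GGAC sites lay more often than other sites near the 5′ end of the gene span and in its last 1000 nt. In the first 10% of the gene span lay 8.33, 7.44 and 7.89% of GGAC sites (WT, then KO replicates 1 and 2), against 5.87, 5.02 and 5.15% of other sites. Of the sites in that stretch 42.1, 43.7 and 44.4% were GGAC. T-ending (9.53, 8.19 and 9.27%) and C-ending members (9.70, 8.26 and 8.59%) lay there more often than A-ending ones (6.79, 6.49 and 6.47%). In the last 1000 nt lay 21.9, 22.8 and 22.8% of GGAC and 19.0, 19.1 and 19.5% of other sites, with T-ending members again highest (23.6, 24.9 and 24.5%). The last 10% of the span showed no excess, with 41.6, 43.6 and 42.4% of GGAC and 42.1, 43.7 and 43.0% of other sites. Gene spans include introns, and these positions are given only for genes whose strand is known.

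Very close to gene starts the members were few. Within 50 nt of a start lay 50 GGAC sites of 169 in WT (29.6%, interval 22.8 to 37.1%), 43 of 97 in KO replicate 1 (44.3%) and 45 of 104 in KO replicate 2 (43.3%). The number of GGAC sites there was thus similar in the 3 libraries, while other sites numbered 119 in WT and 54 and 59 in KO. Inside the regions that the authors list as m6Am, 31 of 101, 17 of 37 and 18 of 45 sites were GGAC. The genotype was not tested here, for lack of a second WT library, and nothing used here says how the region list was made.

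The sequences around gene starts allow a comparison with the letters that could have been listed. In 34943 RefSeq windows of 250 bases before to 50 after a gene start, GGAC followed by A, C or T made up 20.6% of all DRACH letters on the transcribed strand, and 58.7% of windows held one. Of the listed sites in these windows, 37.4% in WT (102 of 273, interval 31.6 to 43.4%), 46.7% in KO replicate 1 (98 of 210) and 46.4% in KO replicate 2 (110 of 237) were GGAC. In the first 50 transcribed bases alone GGAC made up 22.3% of the letters and 29 of 110 listed sites in WT (26.4%, interval 18.4 to 35.6%), which includes the share of the letters. There it made up 24 of 55 sites in KO replicate 1 (43.6%, 30.3 to 57.7%) and 26 of 66 in KO replicate 2 (39.4%, 27.6 to 52.2%). C followed 35.9% of the GGAC letters in the whole windows and 14.7, 21.4 and 13.6% of the listed GGAC sites. The other starts showed the same drop, with C after 30.7% of their letters and 12.3, 8.04 and 7.87% of their listed sites. Windows hold untranscribed bases and lie at starts, where few of the members are, so these shares do not stand for whole transcripts.

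On the mitochondrial genome GGAC sites were almost absent. They were 1 of 69 listed sites in WT, 1 of 61 and 4 of 75 in the KO libraries and 0 of 44 and 3 of 45 in the MEF libraries, where 0 of 44 allows a share of up to 6.82% by the limit of 3 counts and 8.04% by the exact interval. Summed over the lists this was 9 of 294 listings (3.06%, interval 1.41 to 5.73%), against 34.8% of sites in all. Listings of the same position in several libraries are counted more than once in this sum.

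The members were not packed more closely than other sites. In WT another listed site lay within 50 nt of 24.8% of GGAC sites and 26.8% of other sites. The median distance from a GGAC site to the nearest other GGAC site was 636 nt in WT, 676 and 525 nt in KO and 437 and 479 nt in MEF.

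Translation and RNA decay in KO cells were set beside the members through the authors' deposited tables. In the authors' deposited table of translational efficiency, the 475 genes with a GGAC site in WT had a median log2 change of 0.01 in KO, against -0.07 for 181 genes with other sites alone, -0.08 for 107 genes without a site and -0.01 for all 763 matched genes. The 63 genes with 5 or more GGAC sites had 0.04. In the authors' deposited table of KO over WT SLAM-seq ratios, a measure of RNA decay from 4-thiouridine label, the 386 genes with a GGAC site had a median log2 ratio of -0.17, as had all 660 matched genes. The 44 genes with 5 or more had -0.34, with quartiles of -0.68 and 0.14 that span the medians of the other groups. SLAM-seq had no replicate library of either genotype at any time point. These quartiles are therefore a spread over genes, and the variation between libraries behind the ratios is unknown. Ribosome profiling, in contrast, had replicate libraries of both genotypes. Genes that the authors class as m6Am had a GGAC site in 60.1% of 416 cases in the efficiency table. The other starts there had 56% (G), 64.4% (T), 65.5% (A) and 71.2% (C). In the SLAM-seq table the m6Am class was lowest, with 54.2% of 96 genes. There the other starts had 55.8% (T), 57.4% (A), 59.6% (G) and 63.6% (C). Differences between these classes were not tested.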

How the data were processed

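Per the submitters' processing notes, BWA 0.7.17, STAR, bedtools and deepTools were used with GRCh38, hg38 and mm10; no source used here states their roles, the site caller or its threshold. The deposited m6A lists hold whole-number counts of reads (k) and of substituted reads (m) per site, 1 list per library. The authors' m6Am list holds a score per region (not used as a value), the deposited SLAM-seq table a KO over WT ratio, and the authors' efficiency table log2 fold changes and p-values (the latter not reported). Unused columns of unmatched samples numbered 0. At all 754 sites inside reference windows the listed base was the C at motif position 4.

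The members and lists were chosen with earlier results of these data known. Sites were named by the 1 gene whose RefSeq span (GRCh38.p14) holds them on the same strand; strand was known for 15843 of 20056 coding and 11462 of 18330 long noncoding genes, and the others were matched on both strands. Exons and UTRs were not analysed here. Named genes were the 10 with most GGAC sites in WT, the genes of the 10 GGAC sites and of the 5 with most m in WT for A, C and T after GGAC, the 5 sites with most m in each MEF list, and members of fixed lists. Python 3.11.15, pandas 2.3.3, scipy 1.17.1, R 4.3.3 and limma 3.58.1 were used. On simulated data limma (lmFit, eBayes) was checked for its estimates and for false calls. That it calls most changed sites was required only for a very large change of the odds. P-values are two-sided, with Benjamini-Hochberg adjustment and a threshold of 0.05. Alternatives cut the lists at other m and k, equalised list length, left out libraries and changed the site test.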

Additional observations from a re-analysis of the deposited data

How the results depend on the processing

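The GGAC share of 34.8% moved with the sites kept: to 36.9, 39.9 and 43.5% at an m of at least 3, 5 and 10, to 36.3% at a k of at least 20 and 36.3% at a k of at least 50, and to 52.5% among sites with G before the A. The A minus T difference within GGAC of 5.33 points became 3.93 and 6.72 at an m of at least 3 and 10, 2.25 at a k of at least 20 and -3.73 at a k of at least 50. The gap in overlap of 9.86 points became 8.04, 4.40 and 1.43 at an m of at least 3, 5 and 10, and 9.32 with lists of equal length. GGACT against other motifs reversed from -0.049 to 0.246 at a k of at least 20, 0.391 at a k of at least 50 and 0.288 at an m of at least 5; the cause was not tested. The mean differences of GGAC against other motifs and of GGACA against GGACT kept their direction under all 10 alternatives each, but by the median of m over k per site the former was 0.159 points and 0 in 3 of 5 libraries (exact sign-flip permutation p = 0.5). The HEK293T minus MEF difference in share of -1.22 points became -1.87, -2.07 and -2.73 at an m of at least 3, 5 and 10 and -1.74 and -2.19 at a k of at least 20 and 50. Leaving out 1 library at a time gave 34.5 to 35.0% for the share, 5.05 to 5.70 points for A minus T, 0.725 to 0.770 for GGAC against other motifs, 9.42 to 10.6 for the overlap and -1.55 to -0.880 for HEK293T against MEF. The median KO minus WT log2 odds at shared GGAC sites of -0.01 was 0.06 with centred libraries and 0.04 with precision weights, and 0 sites were called by limma under any of these settings (169 to 304 at an unadjusted p under 0.05, Fisher's exact test included). Cuts on m and k for the HEK293T and MEF comparison, and leaving out libraries for the share, the fifth base and the overlap, were added after seeing the data. No paired analysis was possible because the single WT miCLIP library shares only 1 replicate number with KO, and the mouse replicates are not of the same cells.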
